A study of Mus musculus with 14 samples.

Results

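The nuclear genes of respiratory complex III, complex IV and ATP synthase were examined in sorted cells of mouse lung adenocarcinomas with and without Setd2 targeting. The members were the protein-coding genes whose symbols begin with Uqcr, Cox4 to Cox8 or Atp5, together with Cyc1 and without Atp5s and Atp5sl, and 43 of the 52550 genes in the expression table met this rule. They comprised 9 genes of complex III, 18 of complex IV and 16 of ATP synthase. The 6 KPY-Ctrl tumors and 8 KPY-Setd2KO tumors all carried Trp53 flox/flox and Rosa26 LSL-YFP/LSL-YFP, so that Cre recombinase removed p53 and marked the recombined cells with yellow fluorescent protein (YFP). Both genotypes received a lentivirus that delivered Cre, Cas9 and a guide RNA, which was a non-targeting control in KPY-Ctrl and a guide against Setd2, the histone methyltransferase of the H3K36 trimethyl mark, in KPY-Setd2KO. Tumors were dissected and live YFP-positive cells were sorted, fewer mice than tumors contributed RNA, and the mouse of each tumor is not given, so the p-values treat tumors as independent although some shared an animal. KPY-Ctrl tumors 4 and 5 were the closest pair. Their squared differences in scaled counts were a median of 3.36 times the counting variance over 12139 genes, against 8.45 for the next pair. Whether they shared an animal is not given. The age of each animal is not given in the labels.

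Electrons from ubiquinol pass through complex III to cytochrome c and then through complex IV to oxygen, and the proton gradient that this builds drives ATP synthase. In ATP synthase, protons turn a ring of c subunits in the membrane, the turning shaft drives catalysis in the F1 head, and a peripheral stalk holds the head still. Each complex combines subunits encoded in the nucleus with a few encoded in mitochondrial DNA, and several complex IV subunits have isoforms that are typical of heart and skeletal muscle, lung or testis.

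Total counts ranged from 27866266 to 51828846 per KPY-Ctrl tumor and from 20072236 to 40604404 per KPY-Setd2KO tumor, so counting error was small for the abundant members. Expression is given in CPM, the count divided by a library size scaled with TMM factors. Setd2 itself was at 52.98 CPM ± 8.51 (SD, n = 6) in KPY-Ctrl against 31.7 CPM ± 10.9 (SD, n = 8) in KPY-Setd2KO, with overlapping ranges. Epithelial markers, the class that defines these tumor cells, were detected in every tumor (mean log2 CPM of 10 genes 8.68 to 10.7 in KPY-Ctrl and 7.84 to 10.5 in KPY-Setd2KO). The leukocyte score, the mean log2 CPM of 12 leukocyte markers, was 9.49 to 10.5 in 7 tumors (3 KPY-Ctrl and 4 KPY-Setd2KO) and 4.62 to 6.74 in the other 7 (3 KPY-Ctrl and 4 KPY-Setd2KO). Leukocyte-marker RNA was therefore abundant in libraries sorted for YFP, most of all in the 7 of high score. Epithelial markers went the other way. Epcam was at 72.2 to 285 CPM in the 7 tumors of high score and at 464 to 843 CPM in the 7 of low score. The other epithelial markers were also lower in every tumor of high score than in every tumor of low score, except that the ranges of Krt19 and Sftpc overlapped. In these bulk samples, fewer cells of a type and less RNA per cell cannot be told apart.

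Several members cannot be counted cleanly, because the genome holds processed copies of them that the table lists as genes of their own. Reads of 75 bases that fall in a stretch identical between a gene and its copy cannot be placed by sequence alone. Of the 40 members tested, 25 shared no 75-base window of their principal transcript with another gene of the annotation and 15 shared at least 1, and in 3 of them (Cox7c, Atp5g2 and Atp5l) every window of the coding sequence was shared. A full-length copy was defined as a gene that matched a member at 95% identity or more over at least 50% of its coding sequence, and 6 members had such a copy with 1000 counts or more. The clearest case was Cox7c, a small membrane subunit of complex IV (chr13:86044816-86046904, minus strand, GRCm38). Its coding sequence and the matching stretches of the copies Gm12338 (chr11:75599763-75599954, minus strand) and Gm10012 (chr17:25901856-25902227, plus strand) are shown because the counts of Cox7c turn on them. Capitals mark the bases that differ from Cox7c.
Cox7c: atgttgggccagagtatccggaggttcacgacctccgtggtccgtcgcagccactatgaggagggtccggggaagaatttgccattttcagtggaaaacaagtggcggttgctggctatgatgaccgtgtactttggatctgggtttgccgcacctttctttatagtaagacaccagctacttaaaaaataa
Gm12338: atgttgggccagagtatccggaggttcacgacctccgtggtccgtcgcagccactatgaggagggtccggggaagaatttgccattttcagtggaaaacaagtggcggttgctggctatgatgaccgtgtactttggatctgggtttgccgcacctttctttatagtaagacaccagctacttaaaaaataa
Gm10012: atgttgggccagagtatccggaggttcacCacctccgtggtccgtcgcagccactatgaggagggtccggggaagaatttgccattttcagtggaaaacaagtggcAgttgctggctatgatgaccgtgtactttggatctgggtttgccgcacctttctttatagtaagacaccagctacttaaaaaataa
Gm12338 was identical to Cox7c over all 192 bases, stop codon included, and Gm10012 differed by G30C and G107A, counted from the first base of the start codon. Both are annotated as processed pseudogenes.

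The c subunits of ATP synthase showed the opposite case. Atp5g1 (chr11:96068852-96075670), Atp5g2 (chr15:102662864-102672352) and Atp5g3 (chr2:73908447-73911326), all on the minus strand, encode the same mature ring protein behind different mitochondrial targeting sequences. Their precursors had 136, 146 and 141 residues, and the last 75 codons before the stop codon encoded identical residues in all 3. At the level of DNA the same 228 bases, stop codon included, were 85.1% identical between Atp5g1 and Atp5g2, 79.8% between Atp5g1 and Atp5g3 and 78.5% between Atp5g2 and Atp5g3. Capitals mark the 58 positions at which the 3 genes are not all alike.
Atp5g1: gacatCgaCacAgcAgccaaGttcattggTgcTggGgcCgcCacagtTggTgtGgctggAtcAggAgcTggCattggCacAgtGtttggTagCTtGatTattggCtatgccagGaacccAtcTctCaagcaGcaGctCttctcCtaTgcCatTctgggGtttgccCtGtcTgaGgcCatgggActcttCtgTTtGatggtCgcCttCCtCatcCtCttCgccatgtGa
Atp5g2: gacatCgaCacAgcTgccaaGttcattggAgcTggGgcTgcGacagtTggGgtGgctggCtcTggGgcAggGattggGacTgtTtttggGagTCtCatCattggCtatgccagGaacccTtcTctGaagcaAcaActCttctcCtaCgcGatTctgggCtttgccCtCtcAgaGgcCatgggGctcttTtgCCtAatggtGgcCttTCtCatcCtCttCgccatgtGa
Atp5g3: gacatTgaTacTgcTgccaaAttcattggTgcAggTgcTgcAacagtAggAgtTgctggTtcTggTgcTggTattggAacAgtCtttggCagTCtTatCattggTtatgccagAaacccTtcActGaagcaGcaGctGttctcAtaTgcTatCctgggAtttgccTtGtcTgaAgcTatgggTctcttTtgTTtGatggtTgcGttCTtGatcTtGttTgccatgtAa
No 75-base window was shared between these 3 genes, so a read can tell the isoforms apart although the protein cannot. Their copies were closer to them than they were to each other. Gm10175 (chr7:23946646-23947290) and Gm10231 (chr17:5816200-5816640) matched Atp5g2 without a difference over 645 and 441 bases, and Gm10039 (chr11:100361716-100362126) matched Atp5g1 at 99.8% identity over 411 bases. Atp5g3 had no such copy.

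Levels between genes were compared per kilobase of principal transcript (CPM per kb, mean of 14 tumors). Cox4i1, the common isoform of subunit IV, was the most abundant member at 725 CPM per kb, followed by Atp5b, the catalytic beta subunit of F1, at 489 and by Uqcrh, the hinge protein of complex III, at 439.8. The ranges of these 3 genes over tumors overlapped (388 to 1189, 308 to 658 and 289.8 to 645 CPM per kb). In complex III the supernumerary subunits Uqcrb (301 CPM per kb) and Uqcrq (287) came next, while the heme protein cytochrome c1, Cyc1, was lowest at 39.5. In ATP synthase the level per length fell to 73.04 CPM per kb for Atp5g1 and 26.1 for Atp5g2, whose reads can also be assigned to copies. The same applies to higher genes of the complex, such as Atp5l at 107 CPM per kb and Atp5h at 392. The coefficient of variation of CPM within a genotype had a median over members of 30.2% in KPY-Ctrl and 26.7% in KPY-Setd2KO.

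**Figure D1:**
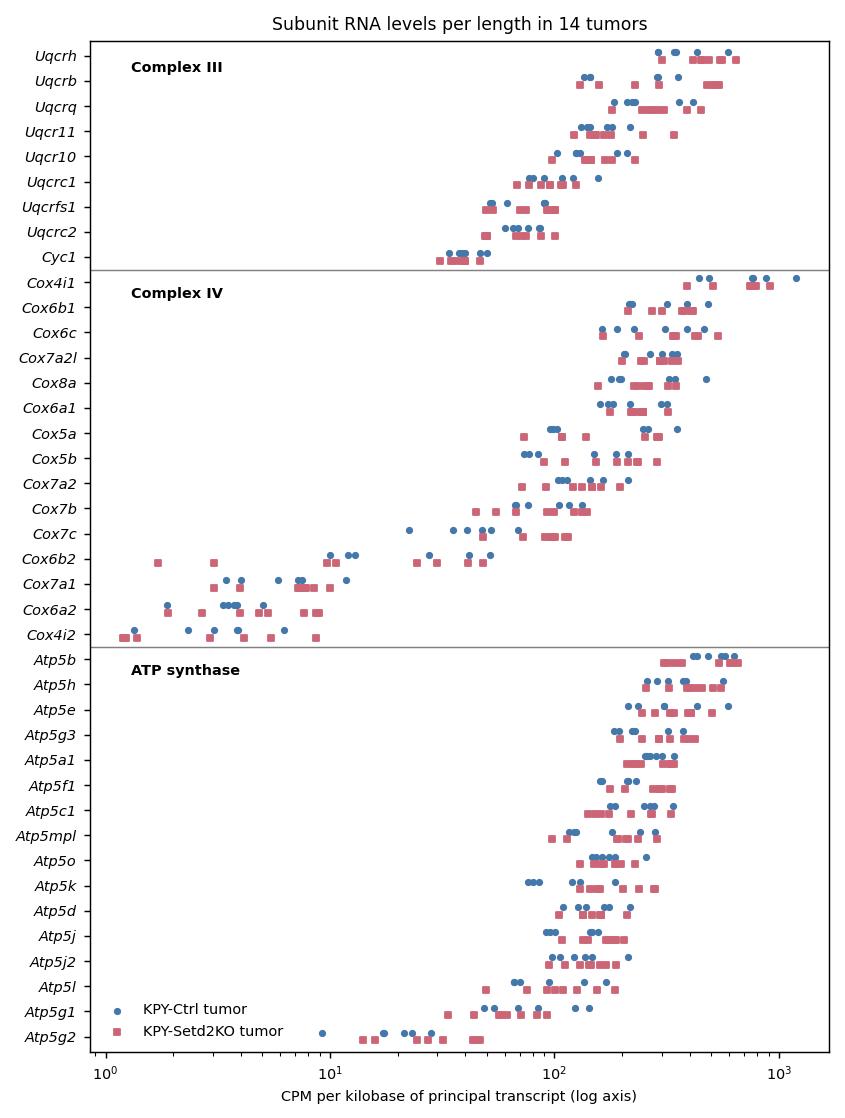
CPM per kilobase of principal transcript (log axis) of the 40 members tested, ordered within each complex by the mean over tumors, with 1 point per KPY-Ctrl tumor (circles) and KPY-Setd2KO tumor (squares). Cox4i1 is highest at a mean of 725 and the isoforms Cox4i2, Cox6a2 and Cox7a1 are lowest at 3.36, 4.66 and 6.82.

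The tissue isoforms of complex IV were minor in all tumors. Cox4i2, the isoform of lung and of low oxygen, held 0.529% ± 0.329 (SD, n = 6) of subunit IV RNA per length in KPY-Ctrl and 0.507% ± 0.398 (SD, n = 8) in KPY-Setd2KO, the remainder being Cox4i1. The heart and muscle isoform Cox6a2 held 1.75% ± 0.865 (SD, n = 6) in KPY-Ctrl against 2.20% ± 0.923 (SD, n = 8) in KPY-Setd2KO of the RNA it makes up with Cox6a1, and Cox7a1, also a muscle isoform, held 4.36% ± 0.868 (SD, n = 6) in KPY-Ctrl against 5.44% ± 2.85 (SD, n = 8) in KPY-Setd2KO beside Cox7a2. Cox6b2, the testis isoform, reached 7.10% ± 2.35 (SD, n = 6) in KPY-Ctrl against 5.15% ± 3.86 (SD, n = 8) in KPY-Setd2KO beside Cox6b1. Each of these 4 shares overlapped between genotypes, and none differed when all splits of the tumors were enumerated in a two-sided exact permutation test (p = 0.939, 0.364, 0.4 and 0.287 in the order given, adjusted p of 0.467 or more over the 7 shares compared). The 3 remaining isoforms were at or near 0 and were not tested: the testis isoform Cox7b2 had 4 counts in all, every one of them in KPY-Setd2KO tumor 3, the muscle isoform Cox8b had 1 count in a KPY-Ctrl tumor, and the testis isoform Cox8c had 0 counts, which allows for up to 3 over all tumors by counting error alone.

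The mixture of c subunit isoforms differed between the genotypes. With the counts as deposited, the Atp5g1 share of c subunit RNA per length ranged from 18.9 to 26.9% (median 23.8) in KPY-Ctrl and from 12.7 to 18.5% (median 14.3) in KPY-Setd2KO. The groups did not overlap, and the mean share fell from 23.4% ± 3.65 (SD, n = 6) to 15.01% ± 1.88 (SD, n = 8). The two-sided exact permutation test gave p = 0.000333, the smallest that the splits of these tumors allow, and an adjusted p of 0.00233 over the 7 shares. With the union of all exons as length the difference was -4.02 percentage points in place of -8.39 (exact permutation test, p = 0.000333, adjusted p = 0.00233). Atp5g3 filled most of the difference, with a share from 69.3 to 73.2% (median 70.3) in KPY-Ctrl and from 71.9 to 83.8% (median 77.5) in KPY-Setd2KO (exact permutation test, p = 0.00233, adjusted p = 0.00816). Atp5g2 held 5.82% ± 2.65 (SD, n = 6) in KPY-Ctrl against 7.50% ± 2.48 (SD, n = 8) in KPY-Setd2KO (exact permutation test, p = 0.244, adjusted p = 0.467).

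With the counts of the full-length copies added, the order of the isoforms changed and the difference in Atp5g1 remained. The Atp5g2 share rose to 37.1% ± 4.38 (SD, n = 6) in KPY-Ctrl against 37.7% ± 5.81 (SD, n = 8) in KPY-Setd2KO, since 89.6% of the counts of Atp5g2 and its copies lay on the copies, and Atp5g3 then held 41.2% ± 3.29 (SD, n = 6) in KPY-Ctrl against 47.5% ± 4.88 (SD, n = 8) in KPY-Setd2KO. Atp5g1 then held 21.7% ± 2.67 (SD, n = 6) in KPY-Ctrl against 14.7% ± 2.14 (SD, n = 8) in KPY-Setd2KO, and its share still differed between genotypes (exact permutation test, p = 0.000666, adjusted p = 0.00466), now with overlapping ranges (17.8 to 25.2% and 12.4 to 19.02%). The difference of Atp5g3 no longer passed (p = 0.021, adjusted p = 0.0734, exact permutation test), and it did not pass with the union of exons as length either (difference 2.07 percentage points, adjusted p = 0.467). The Atp5g1 share as deposited was from 26.4 to 26.9% in the 3 KPY-Ctrl tumors and from 12.7 to 16.5% in the 4 KPY-Setd2KO tumors of high leukocyte score, and from 18.9 to 21.2% in the 3 KPY-Ctrl tumors and from 13.8 to 18.5% in the 4 KPY-Setd2KO tumors of low score. Because the groups as deposited did not overlap over all tumors, that they were apart within either set was given in advance and adds no support. With the copies added, where the ranges over all tumors overlapped, every KPY-Ctrl value also lay above every KPY-Setd2KO value within either set. The sets hold 3 KPY-Ctrl and 4 KPY-Setd2KO tumors each and were drawn from the same data. How many of all genes were apart in this way was not counted, so this separation has no background share.

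**Figure D2:**
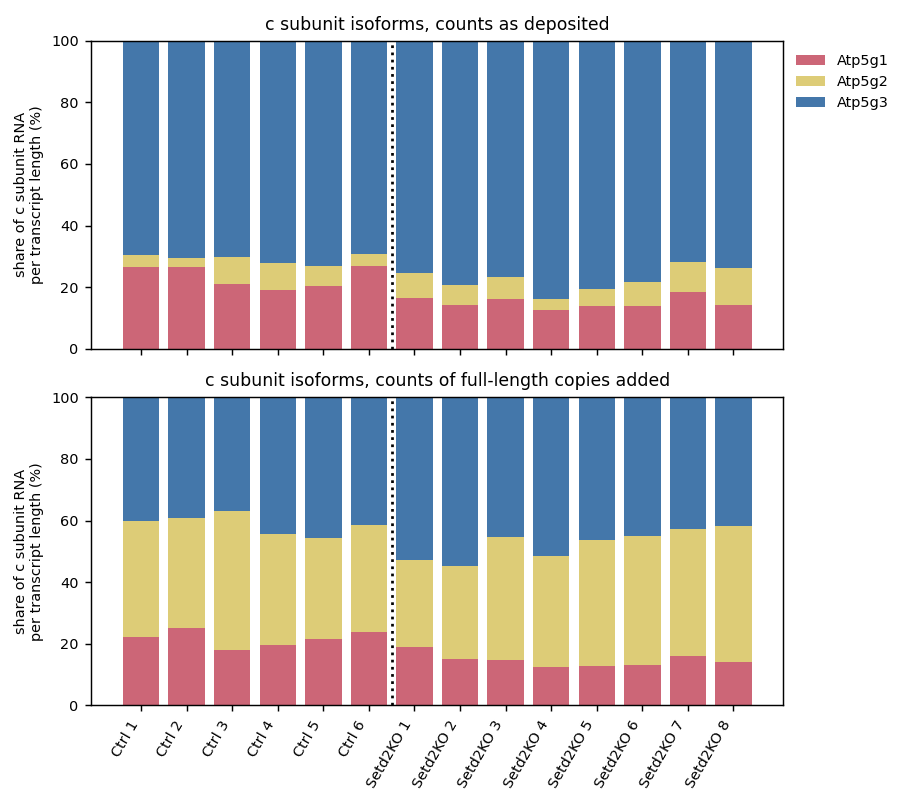
Share of c subunit RNA per transcript length (%) held by Atp5g1, Atp5g2 and Atp5g3 in each tumor, with the counts as deposited (top) and with the counts of full-length copies added (bottom), where the dotted line separates the genotypes. The Atp5g1 share as deposited lies at or above 18.9% in the 6 KPY-Ctrl tumors and at or below 18.5% in the 8 KPY-Setd2KO tumors.

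Between genotypes, 0 of the 40 members tested had an adjusted p under 0.05 by the quasi-likelihood test of edgeR, as for all 16836 genes (0.0%). At an unadjusted p under 0.05, 5 of the 40 members tested were higher in KPY-Setd2KO (12.5%, against 6.93% of all genes) and 0 were lower (against 6.8%). With the counts of full-length copies added, 3 members were higher (7.5%), since Cox7c and Atp5g2 no longer passed. DESeq2, the tool of the study, called 1 member higher and 0 lower (2.5% higher, against 2.12% of all genes higher and 1.46% lower). With the leukocyte score as a covariate, edgeR called 4 members higher and 0 lower (10% higher, against 2.99% of all genes higher and 2.21% lower). No member had groups that did not overlap in CPM, as 0.57% of all genes had. The median log2 fold change was 0.13 over the 9 genes of complex III, 0.04 over the 15 tested of complex IV and 0.09 over the 16 of ATP synthase, beside 0.03 over all genes tested, and 26 of the 40 members lay above 0. That count was 16 without TMM factors, 19 without KPY-Ctrl tumor 4, 20 without KPY-Ctrl tumor 5 and 31 without KPY-Ctrl tumor 6. The median of complex IV was below 0 without KPY-Ctrl tumor 4 or 5 (-0.04 in both cases), and all 3 medians were below 0 without TMM factors (-0.02, -0.10 and -0.05), where the median of all genes was -0.11.

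Short genes as a class lay higher in KPY-Setd2KO, and most members are short. The 976 protein-coding genes tested whose principal transcript was under 1000 bases had a median log2 fold change of 0.18, with 66.9% above 0, against 0.0036 and 50.4% for the 12876 other protein-coding genes. Of the 30 members under 1000 bases, 73.3% lay above 0 with a median of 0.13, and of the 10 longer members 40% with a median of -0.07. The part of transcript length in the values of the members was not tested further.

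**Figure D3:**
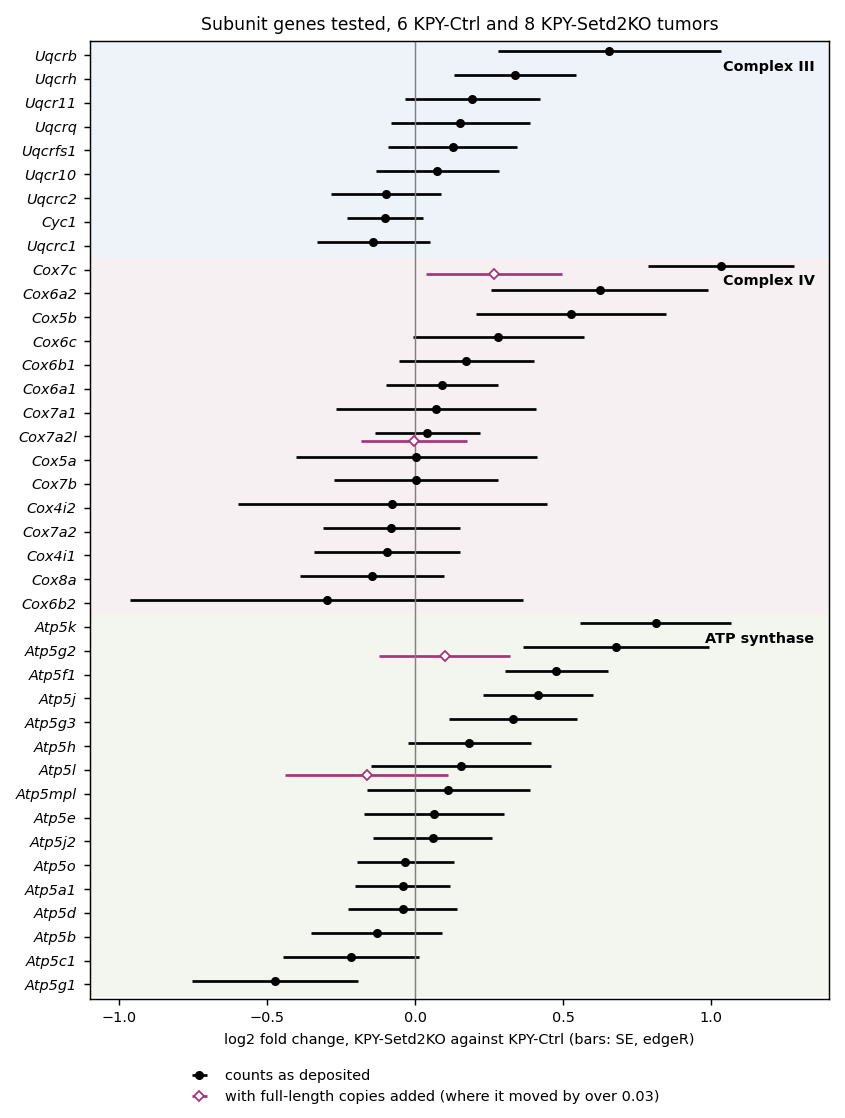
Log2 fold change of KPY-Setd2KO against KPY-Ctrl with its SE (edgeR) for the 40 members tested, by complex, with the counts as deposited (circles) and, for the 4 members it moved by over 0.03, with the counts of full-length copies added (diamonds). Cox7c moves from 1.04 to 0.27, Atp5g2 from 0.68 to 0.10 and Atp5l from 0.16 to -0.16.

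None of the 9 complex III genes passed the test between genotypes. The core proteins Uqcrc1 and Uqcrc2, which face the matrix, had log2 fold changes of -0.14 (SE 0.19) and -0.10 (SE 0.19). The catalytic subunits were as close to 0, with -0.10 (SE 0.13) for cytochrome c1 and 0.13 (SE 0.22) for the Rieske iron-sulfur protein Uqcrfs1. The small subunits all lay above 0, with 0.34 (SE 0.21) for Uqcrh, 0.19 (SE 0.23) for Uqcr11, 0.15 (SE 0.23) for Uqcrq and 0.08 (SE 0.21) for Uqcr10.

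Uqcrb, which sits at the ubiquinone-binding side of complex III, had the smallest p and the largest change of the complex. It ranged from 72.8 to 190.5 CPM (median 115) in KPY-Ctrl and from 69.5 to 289 CPM (median 206) in KPY-Setd2KO, and the groups overlapped widely. Its log2 fold change was 0.66 (SE 0.38, adjusted p = 0.478) in edgeR, and with the leukocyte score as a covariate it rose by 0.47 (SE 0.12, adjusted p = 0.0433). Uqcrb lay from 153 to 190.5 CPM in the 3 KPY-Ctrl tumors and from 255 to 289 CPM in the 4 KPY-Setd2KO tumors of high leukocyte score, and from 72.8 to 77.2 CPM in the 3 KPY-Ctrl tumors and from 69.5 to 156 CPM in the 4 KPY-Setd2KO tumors of low score. The genotypes were apart at high score, where every KPY-Setd2KO tumor was above every KPY-Ctrl tumor, and overlapped at low score. How many of all genes were apart within such a set of tumors was not counted. Copies took only 0.35% of the counts of Uqcrb and its copies.

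Cox7c of complex IV had the largest fold change and the smallest p of all members. It ranged from 12.2 to 37.3 CPM (median 23.9) in KPY-Ctrl and from 26.1 to 61.8 CPM (median 52.3) in KPY-Setd2KO, so that the lowest KPY-Setd2KO tumor lay inside the KPY-Ctrl range. The means were 24.1 CPM ± 8.57 (SD, n = 6) in KPY-Ctrl against 49.4 CPM ± 11.8 (SD, n = 8) in KPY-Setd2KO, with a log2 fold change of 1.04 (SE 0.25, adjusted p = 0.122) in edgeR. DESeq2 called it higher at 1.03 (SE 0.26, adjusted p = 0.00709), as did edgeR with the leukocyte covariate at 0.99 (SE 0.22, adjusted p = 0.026).

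Most reads of this family were not on the Cox7c row. Cox7c held 18047 counts over all tumors, Gm12338 held 39645 and Gm10012 held 9094, so that 73.0% of the counts of Cox7c and its copies lay on the copies. Gm12338 was at 76.99 CPM ± 26.7 (SD, n = 6) in KPY-Ctrl against 84.4 CPM ± 22.4 (SD, n = 8) in KPY-Setd2KO, and Gm10012 at 22.4 CPM ± 8.25 (SD, n = 6) in KPY-Ctrl against 14.7 CPM ± 7.46 (SD, n = 8) in KPY-Setd2KO. The sum of Cox7c and its copies ranged from 84.8 to 174 CPM (median 110.0) in KPY-Ctrl and from 80.2 to 196 CPM (median 158) in KPY-Setd2KO. Its log2 fold change was 0.27 (SE 0.23, adjusted p = 0.678) in edgeR, 0.27 (SE 0.24, adjusted p = 0.656) in DESeq2 and 0.22 (SE 0.14, adjusted p = 0.346) with the leukocyte covariate, so the call was lost in each tool that had made it. The share of the sum that the table assigned to Cox7c ranged from 9.99 to 26.3% (median 21.02) in KPY-Ctrl and from 27.05 to 39.7% (median 33.5) in KPY-Setd2KO. The groups did not overlap in that share, which was examined because of the values of Cox7c and is given without a test.

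**Figure D4:**
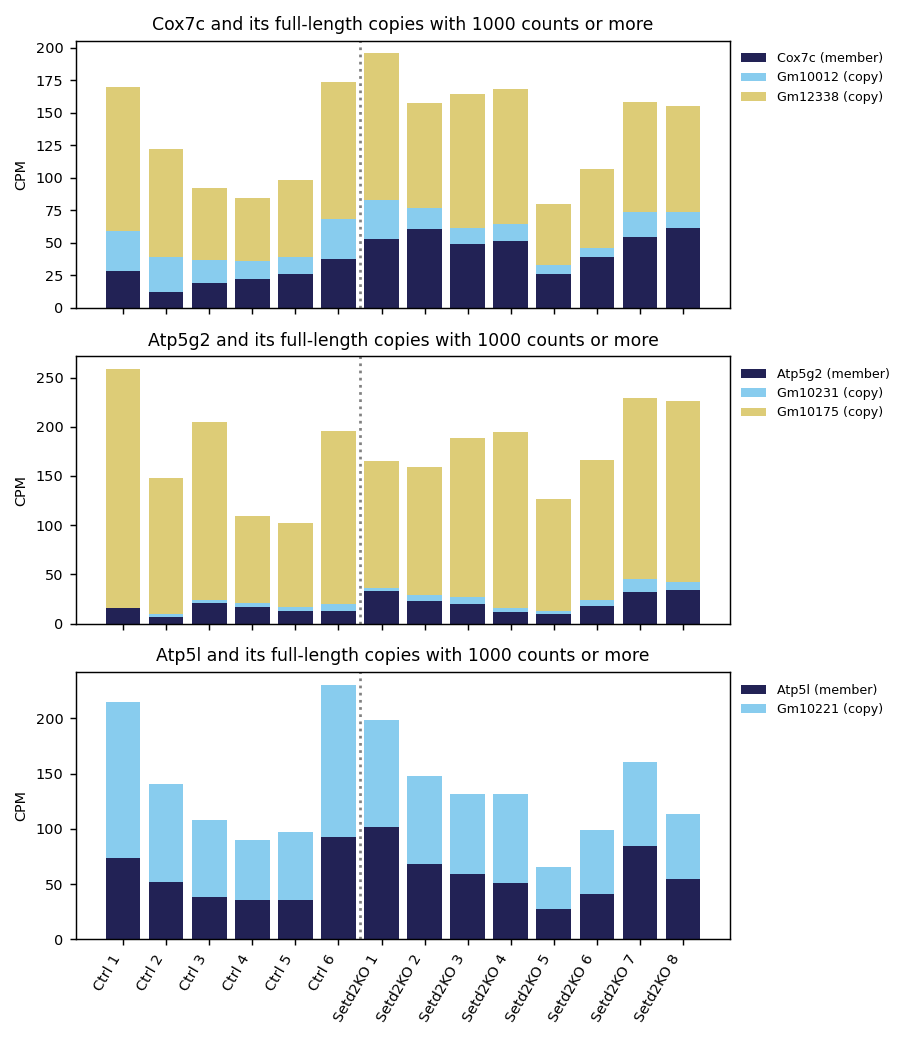
CPM of Cox7c, Atp5g2 and Atp5l (dark) stacked with their full-length copies of 1000 counts or more (light) in each tumor, KPY-Ctrl left of the dotted line and KPY-Setd2KO right of it. The copies hold most of the bar for Cox7c and Atp5g2 in every tumor, and for Atp5l in every tumor but KPY-Setd2KO 1 and 7. The height of the Cox7c bars overlaps between genotypes (84.8 to 174 CPM and 80.2 to 196 CPM with all copies).

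Like Cox7c, the other subunits of complex IV did not pass the main edgeR test between genotypes. Cox4i1, which ranged from 329 to 886 CPM (median 566) in KPY-Ctrl and from 289 to 683 CPM (median 564) in KPY-Setd2KO, had a log2 fold change of -0.09 (SE 0.25). Cox5b, a zinc-binding subunit on the matrix side, lay at 0.53 (SE 0.32, adjusted p = 0.509) with means of 113 CPM ± 53.1 (SD, n = 6) in KPY-Ctrl against 163 CPM ± 57.8 (SD, n = 8) in KPY-Setd2KO. Its partner Cox5a, also on the matrix side, was at 0.0041 (SE 0.41).

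Among the isoforms, the ubiquitous forms had log2 fold changes of 0.09 (SE 0.19) for Cox6a1, 0.17 (SE 0.23) for Cox6b1, -0.08 (SE 0.23) for Cox7a2, 0.0021 (SE 0.28) for Cox7b and -0.15 (SE 0.24) for Cox8a. Cox7a2l, a relative of Cox7a2 that joins complex III to complex IV in supercomplexes, was at 0.04 (SE 0.18). The low tissue forms had wide errors, with -0.08 (SE 0.52) for Cox4i2, 0.62 (SE 0.37) for Cox6a2, -0.30 (SE 0.66) for Cox6b2 and 0.07 (SE 0.34) for Cox7a1. With the leukocyte covariate Cox6b2 was lower by 0.90 (SE 0.27, edgeR adjusted p = 0.064) and did not pass. The summed level of 10 striated muscle markers was 86.8 to 1163 CPM in KPY-Ctrl and 70.1 to 779 CPM in KPY-Setd2KO, and 0 of the 10 were undetected in all tumors. Most of it was Myh7, a slow and cardiac myosin heavy chain, at 65.5 to 1057 CPM in KPY-Ctrl and 58.3 to 761 CPM in KPY-Setd2KO. Myh6 reached 101.6 CPM in KPY-Ctrl tumor 3, Tnnt2 was at 64.1 and 68.5 CPM in KPY-Setd2KO tumors 5 and 6, and the other 7 markers were at or below 2.44 CPM in every tumor. The part of these markers in the values of Cox6a2 and Cox7a1 was not tested. Cox6c had a copy as well, Cox6c2, and its log2 fold change was 0.28 (SE 0.29) alone and 0.29 (SE 0.28) with copies.

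In ATP synthase, the values are given by part of the enzyme. The F1 subunits lay near or below 0, with -0.04 (SE 0.16) for alpha (Atp5a1), -0.13 (SE 0.22) for beta (Atp5b), -0.22 (SE 0.23) for gamma (Atp5c1), -0.04 (SE 0.18) for delta (Atp5d) and 0.06 (SE 0.24) for epsilon (Atp5e), and none passed the test. Atp5b ranged from 794 to 1209 CPM (median 996) in KPY-Ctrl and from 589 to 1261 CPM (median 871) in KPY-Setd2KO. It was from 1063 to 1209 CPM in the 3 KPY-Ctrl tumors and from 1034 to 1261 CPM in the 4 KPY-Setd2KO tumors of high leukocyte score, and from 794 to 929 CPM in the 3 KPY-Ctrl tumors and from 589 to 708 CPM in the 4 KPY-Setd2KO tumors of low score, so that the KPY-Setd2KO tumors lay below the KPY-Ctrl tumors at low score and overlapped with them at high score. Atp5a1 and Atp5c1 did likewise at low score, whereas Cox5b, Cox7c, Atp5j and Atp5k of KPY-Setd2KO lay above KPY-Ctrl there. At high score Uqcrb, Uqcrfs1, Cox7c, Atp5f1 and Atp5j of KPY-Setd2KO lay above KPY-Ctrl and Atp5d lay below. How many of all genes were apart within these sets was not counted, so these separations have no background share.

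Of the 4 peripheral stalk subunits, 2 were higher at an unadjusted p under 0.05, beside 6.93% of all genes. Atp5f1, subunit b, ranged from 257 to 371 CPM (median 339.9) in KPY-Ctrl and from 285 to 537 CPM (median 472) in KPY-Setd2KO, and its log2 fold change was 0.48 (SE 0.17, adjusted p = 0.25) in edgeR. Atp5j, coupling factor 6, ranged from 74.2 to 126 CPM (median 98.7) in KPY-Ctrl and from 87.04 to 165 CPM (median 139.5) in KPY-Setd2KO, with a log2 fold change of 0.41 (SE 0.19, adjusted p = 0.34). With the leukocyte covariate Atp5j rose by 0.38 (SE 0.10, adjusted p = 0.0403) and Atp5f1 did not pass, at 0.44 (SE 0.13, adjusted p = 0.0615). Within each set of tumors by leukocyte score, every KPY-Setd2KO tumor was above every KPY-Ctrl tumor for Atp5j, as for Cox7c as deposited. How many of all genes did so was not counted. The remaining stalk subunits, Atp5h (subunit d) and Atp5o (the oligomycin sensitivity subunit), lay at 0.18 (SE 0.21) and -0.03 (SE 0.16).

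Atp5k, subunit e, which helps ATP synthase form dimers in the inner membrane, was the member with the largest change among those without shared windows. It ranged from 28.3 to 69.2 CPM (median 37.96) in KPY-Ctrl and from 48.3 to 104 CPM (median 66.9) in KPY-Setd2KO, and the highest KPY-Ctrl tumor lay above 4 of the KPY-Setd2KO tumors. The means were 41.9 CPM ± 15.7 (SD, n = 6) in KPY-Ctrl against 73.6 CPM ± 22.5 (SD, n = 8) in KPY-Setd2KO, with a log2 fold change of 0.81 (SE 0.25, adjusted p = 0.19) in edgeR and 0.82 (SE 0.26, adjusted p = 0.0532) in DESeq2. With the leukocyte covariate it rose by 0.82 (SE 0.21, adjusted p = 0.0402). Full-length copies held 0.011% of the counts of Atp5k and its copies, and with them added the covariate fit still called it (adjusted p = 0.0403).

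Among the other membrane subunits, Atp5l turned from above to below 0 with its copies. This subunit, g, was at 0.16 (SE 0.30) as deposited and at -0.16 (SE 0.28) with its copies, of which Gm10221 (chr5:24581554-24581862) held 40190 counts against 28170 for Atp5l. Atp5l held 37.1% ± 2.35 (SD, n = 6) in KPY-Ctrl against 45.4% ± 4.84 (SD, n = 8) in KPY-Setd2KO of the counts of Atp5l and its copies. Subunit f, Atp5j2, was at 0.06 (SE 0.20) and the small proteolipid Atp5mpl at 0.11 (SE 0.28).

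For the c ring, Atp5g2 ranged from 6.74 to 20.6 CPM (median 14.2) in KPY-Ctrl and from 10.2 to 33.96 CPM (median 21.7) in KPY-Setd2KO. Its log2 fold change was 0.68 (SE 0.31, adjusted p = 0.359) as deposited and 0.10 (SE 0.22, adjusted p = 0.896) with its copies, and Gm10175 alone was at 152 CPM ± 60.6 (SD, n = 6) in KPY-Ctrl against 153 CPM ± 27.8 (SD, n = 8) in KPY-Setd2KO. Atp5g1 ranged from 28.9 to 84.7 CPM (median 45.6) in KPY-Ctrl and from 20.1 to 55.4 CPM (median 35.5) in KPY-Setd2KO, and it lay at -0.47 (SE 0.28, adjusted p = 0.495) as deposited and -0.45 (SE 0.25, adjusted p = 0.473) with its copy. Atp5g3 ranged from 132 to 267 CPM (median 161) in KPY-Ctrl and from 141 to 303 CPM (median 221) in KPY-Setd2KO, with 0.33 (SE 0.22, adjusted p = 0.546). With the leukocyte covariate Atp5g1 was at -0.48 (SE 0.20, edgeR adjusted p = 0.155). None of the 3 isoforms passed as a level in edgeR, where the adjustment ran over 16836 genes. The share of Atp5g1, a comparison within each tumor, passed a permutation test adjusted over 7 shares. These outcomes are therefore not directly comparable.

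More members passed the test for the leukocyte score than for genotype. In the fit with both terms, the level of 24 of the 40 members rose with the score at an adjusted p under 0.05 (edgeR), against 28.5% of all genes, and 1 member fell with it, against 28.6%. The risers were 4 of 9 in complex III, 9 of 15 in complex IV and 11 of 16 in ATP synthase. Because the tumors fall into a set of high score and a set of low score, such a slope mostly describes the difference between the sets, and no correlation is given.

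Cox5a had the smallest p for the score, with a log2 slope of 0.33 per unit (SE 0.03, edgeR adjusted p = 8.1e-08). It was from 161 to 227 CPM in the 3 KPY-Ctrl tumors and from 163 to 188 CPM in the 4 KPY-Setd2KO tumors of high leukocyte score, and from 61.4 to 66.1 CPM in the 3 KPY-Ctrl tumors and from 47.1 to 89.3 CPM in the 4 KPY-Setd2KO tumors of low score. All 7 tumors of high score were above all 7 of low score. Cox6b2 had the steepest slope at 0.56 (SE 0.06, edgeR adjusted p = 4.83e-06), and its range was 4.63 to 24.1 CPM in KPY-Ctrl and 0.796 to 22.4 CPM in KPY-Setd2KO. The slope of Uqcrb was 0.30 (SE 0.03, edgeR adjusted p = 6.03e-07), that of Uqcrfs1 0.16 and that of Cox5b 0.24. Cox4i2 was the member that fell, by 0.34 on the log2 scale per unit (SE 0.08, edgeR adjusted p = 0.00322), from 2.80 to 4.54 CPM in the KPY-Ctrl tumors of low score to 0.972 to 2.20 CPM in those of high score. In KPY-Setd2KO it also fell, from 2.12 to 6.33 CPM at low score to 0.871 to 1.00 CPM at high score. Pericyte and smooth muscle markers, cells in which Cox4i2 is known to be expressed, summed over 8 genes to 34.4 to 42.5 CPM in the KPY-Ctrl tumors of low score and 10.9 to 28.8 CPM in those of high score, and to 11.7 to 19.7 CPM and 5.10 to 13.8 CPM in the KPY-Setd2KO tumors of low and high score. Acta2, smooth muscle actin, moved in the same direction in KPY-Ctrl, from 27.3 to 36.9 CPM in the tumors of low score to 8.57 to 18.8 CPM in those of high score. In KPY-Setd2KO Acta2 did not fall, at 2.05 to 8.11 CPM at low score and 3.00 to 9.75 CPM at high score. The other 7 markers were at or below 6.10 CPM in every tumor and did not move alike. In KPY-Ctrl, Notch3 fell from 2.56 to 5.79 CPM at low score to 0.239 to 1.61 CPM at high score. Cspg4 rose there from 0.238 to 0.953 CPM to 1.00 to 3.83 CPM. The part of these markers in Cox4i2 was not tested.

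**Figure D5:**
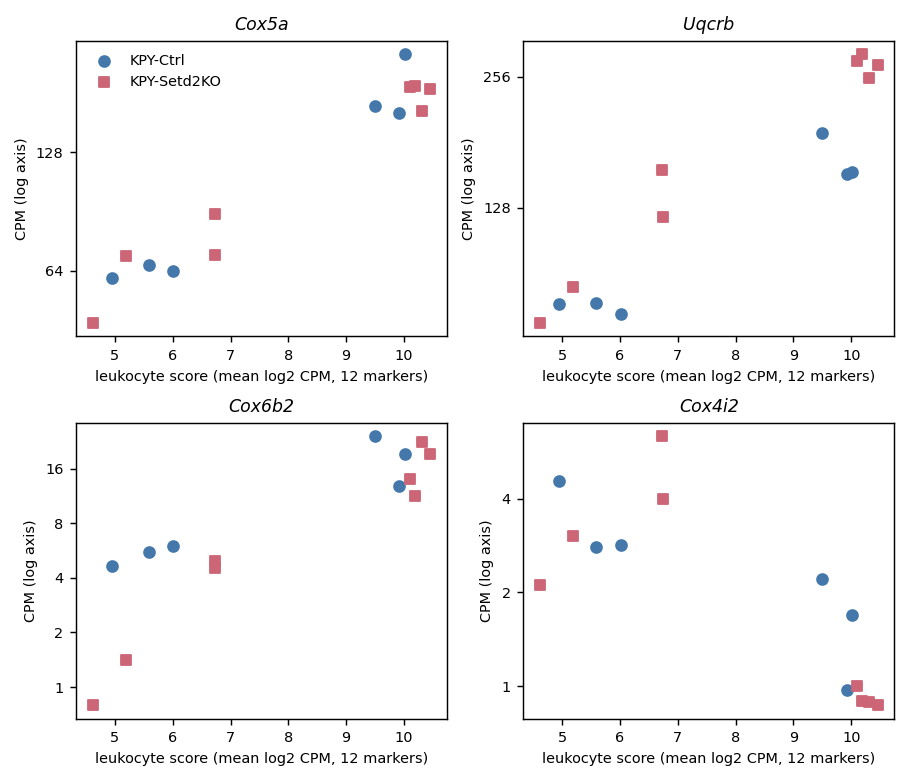
CPM (log axis) of Cox5a, Uqcrb, Cox6b2 and Cox4i2 against the leukocyte score (mean log2 CPM of 12 markers), 1 point per KPY-Ctrl tumor (circles) and KPY-Setd2KO tumor (squares). In the 7 tumors with a score from 9.49 to 10.5, Cox5a and Cox6b2 lie above every one of the 7 tumors with a score from 4.62 to 6.74, while the ranges of Uqcrb and Cox4i2 overlap between these sets.

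Genes that work with the members were examined as lists, whose counts at an unadjusted p under 0.05 stand beside 6.93% of all genes higher and 6.8% lower. The 6 mitochondrially encoded subunits of these complexes all lay above 0, with a median log2 fold change of 0.22, and none had an unadjusted p under 0.05 (the smallest was mt-Atp6, subunit a of the proton channel, at 0.58, SE 0.32, adjusted p = 0.455 in edgeR). Of 22 complex IV assembly factors, 3 were higher and 1 was lower at an unadjusted p under 0.05, with a median of 0.16, and Pet117 had the smallest p (0.97, SE 0.37, adjusted p = 0.267). Among the 6 complex III assembly factors, 2 were higher and 0 lower, led by Uqcc3 (0.50, SE 0.18, adjusted p = 0.235). Of 5 ATP synthase assembly and regulation genes, 0 were higher and 1 was lower, Atpaf1, which chaperones the beta subunit (-0.48, SE 0.18, adjusted p = 0.258). Complex I had 37 nuclear subunits tested, of which 6 were higher and 0 lower, with a median of 0.23, and its smallest p belonged to Ndufs5 (0.59, SE 0.19, adjusted p = 0.206). Complex II (4 genes, median 0.07) and cytochrome c (Cycs, -0.09) had none past an unadjusted p of 0.05. No gene on these lists passed an adjusted p of 0.05 in edgeR.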

How the data were processed

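RNA of sorted cells from 6 KPY-Ctrl and 8 KPY-Setd2KO tumors was sequenced by the authors as 75-base single-end reads, per the study's methods. The authors deposited expected counts per Ensembl gene as whole numbers, estimated with Salmon 0.8.2 against GRCm38.p5 and not normalized. The labels name cell lines and other kits, and the study's description was followed. Whether the counting used strand is not given in the sources used here.

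IDs were matched to GENCODE M21 (52403 of 52550). A second Atp5o gene of the annotation was not analysed here. Protein sequences were not used here. A further allele that all tumors of both genotypes carried is not reported here. Lengths were those of the principal transcript, and copies were found with BLAST+ 2.17.0. Counts were fitted with edgeR 4.0.16 in R 4.3.3 (TMM, expression filter, robust quasi-likelihood test) on all 16836 genes passing the filter, with Benjamini-Hochberg adjustment. Alternatives used DESeq2 1.42.0 and limma 3.58.1. Isoform shares were compared by exact permutation of tumors. Log2 CPM used a prior count of 2. In simulated counts for 16296 genes, 44% of 200 genes changed by 1.5 (log2) were recovered, with 1 false call.

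Described were the gene with the smallest p, the largest change and the highest level of each complex, every isoform, members called by an alternative, and the remaining members by role. The members and lists were chosen with earlier results of these data known. The use of full-length copies was chosen after seeing the data.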

Additional observations from a re-analysis of the deposited data

How the results depend on the processing

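The number of members past an adjusted p of 0.05 was 0 in the main analysis and in every alternative with 3 exceptions: 1 with DESeq2, 4 with the leukocyte-marker covariate and 3 with that covariate and full-length copies added. The number at an unadjusted p under 0.05 was 5, and it was 3 without a filter on low counts, 9 with the covariate (7 higher and 2 lower), 2 with any 75-base match added, and 3 with full-length copies added in edgeR and in DESeq2. It ranged from 3 to 7 when each tumor was left out, being 3 without KPY-Ctrl replicate 5 or KPY-Setd2KO replicate 1, 2, 3 or 7. With the replicate number as a block, it was 2. Whether that number marks a shared origin is not given. Deviations of the tumors sharing a number correlated between -0.66 and 0.66. The correlation was above 0 where both tumors lay in the same leukocyte set and below 0 where they did not, so it cannot decide this. The medians did not keep their side throughout. Those of all 3 complexes were below 0 without TMM factors, where 16 members lay above 0 in place of 26. That of complex IV was also below 0 without KPY-Ctrl tumor 4 or 5.

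The Atp5g1 share difference ranged from -9.28 to -7.69 percentage points over the tumors left out, passing each time, and was -4.02 with the union of exons as length. The Atp5g3 difference passed without each tumor, and did not pass with the union of exons (2.07, adjusted p = 0.467, exact permutation test) or with copies added (6.30, adjusted p = 0.0734, exact permutation test). The Cox4i2 share difference ranged from -0.11 to 0.047. Over the tumors left out, the median of complex III ranged from 0.016 to 0.20, that of complex IV from -0.04 to 0.13 and that of ATP synthase from 0.0024 to 0.28 (KPY-Ctrl tumors 4 and 6 left out in turn), moves of less than 1 SD between tumors.

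Without TMM factors the median over all genes was -0.11 in place of 0.03, and values below 0 resulted for Cox6a1 (-0.019), Cox7a1 (-0.017), Cox7a2l (-0.10) and Cox7b (-0.16). Atp5g1 turned to 0.11 when any 75-base match was added, which takes in repeats of its untranslated region. Cox7a2l turned to -0.0061 without a filter, -0.0026 with the block, -0.0026 with any match and, with full-length copies, -0.0028 in edgeR, -0.0023 in DESeq2 and -0.035 with the covariate. Cox7b turned to -0.043 without a filter, -0.011 when every tumor had to have 10 counts or more, -0.049 in limma voom and -0.12 with the covariate, with or without copies. Over the tumors left out, values crossed 0 for Cox4i1 (-0.21 to 0.081), Cox4i2 (-0.46 to 0.17), Cox6b2 (-0.59 to 0.019), Cox7a1 (-0.059 to 0.31), Cox7a2 (-0.18 to 0.071), Cox7a2l (-0.034 to 0.12), Cox7b (-0.10 to 0.13) and Cox8a (-0.25 to 0.054). The parts of depth and of the spread between tumors in these values were not tested. The cause of these changes was not tested.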
